A study of Rattus norvegicus with 23 samples.

Results

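The genes described here encode titin and the proteins of the Z-disc that anchor it and sense stretch, named as Ttn, Tcap, Csrp3, Ankrd1, Myoz2, Ldb3, Actn2, Nebl, Nexn and Flnc. These 10 genes were chosen by name, and 9 of them had values in the deposited tables and were tested among 10655 genes; titin (Ttn) itself was not analysed here. The samples were myocardium of Sprague-Dawley rats in which the left coronary artery had been tied off, causing a myocardial infarction (MI). In the other arm the same operation was followed by a further one to place an implant that the labels call TRD without describing it (MI+TRD), so that all groups share the infarct and differ in the implant together with its operation. At 12 weeks there were 6 libraries of MI and 6 of MI+TRD, and at 6 weeks 6 of MI and 5 of MI+TRD. The labels give no sex, age or position of the tissue relative to the infarct, and no operated group without an infarct is used here. Samples are listed singly, with nothing that ties them to animals, and p-values therefore speak only of the spread among them.

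The Z-disc is the lateral border of the sarcomere, where the thin filaments of neighbouring sarcomeres are crosslinked by alpha-actinin and where the giant spring protein titin is fixed. Telethonin, encoded by Tcap, ties titin molecules together at that border, and muscle LIM protein (Csrp3) and the ankyrin repeat protein CARP (Ankrd1) are counted among the proteins that report stretch to the nucleus. In the heart, Ankrd1 is known as a gene of haemodynamic load, and inherited defects of several of these proteins cause cardiomyopathy.

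For 6 of the 9 genes with values, RefSeq promoter windows of the GRCr8 build were at hand. The 250 bases before the start used in that table are shown for 4 of them. Of these, 3 are examples, each of a different motif of muscle or load-responsive transcription. Actn2, the reference for the ratios below, holds none of these motifs. Capitals mark the match: the MEF2 motif in Myoz2 at chr2:213852779-213853028 (minus strand), the CArG box of serum response factor in Ldb3 at chr16:9924680-9924929 (minus strand), and CATTCC, the core of the M-CAT element of TEAD factors, in Flnc at chr4:58999297-58999546 (plus strand). Strands are those of GRCr8. The Actn2 window is chr17:62834805-62835054 (plus strand).
Myoz2: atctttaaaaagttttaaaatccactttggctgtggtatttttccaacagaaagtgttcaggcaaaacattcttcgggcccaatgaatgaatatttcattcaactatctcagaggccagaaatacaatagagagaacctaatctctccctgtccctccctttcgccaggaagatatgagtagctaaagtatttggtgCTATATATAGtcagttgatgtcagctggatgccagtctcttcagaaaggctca
Ldb3: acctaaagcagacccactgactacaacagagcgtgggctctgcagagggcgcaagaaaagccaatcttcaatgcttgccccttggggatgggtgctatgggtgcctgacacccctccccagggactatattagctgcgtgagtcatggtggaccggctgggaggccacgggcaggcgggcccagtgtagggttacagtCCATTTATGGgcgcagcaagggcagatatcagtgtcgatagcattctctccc
Flnc: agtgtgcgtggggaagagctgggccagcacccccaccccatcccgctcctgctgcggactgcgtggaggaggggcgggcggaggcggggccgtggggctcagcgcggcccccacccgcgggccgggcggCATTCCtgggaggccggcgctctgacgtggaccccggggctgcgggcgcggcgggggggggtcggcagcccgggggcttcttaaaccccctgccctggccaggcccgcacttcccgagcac
Actn2: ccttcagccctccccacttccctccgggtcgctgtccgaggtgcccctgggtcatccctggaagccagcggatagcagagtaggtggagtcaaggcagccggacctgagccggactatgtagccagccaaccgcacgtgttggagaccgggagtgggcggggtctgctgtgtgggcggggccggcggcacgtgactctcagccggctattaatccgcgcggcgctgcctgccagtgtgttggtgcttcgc
Each motif was searched on both strands, and no match overlapped another. The first base of the match lay 53 bases before the start in Myoz2, 52 in Ldb3 and 121 in Flnc. Among 33469 promoter windows of the same length, 991 held the MEF2 motif (2.96%), 501 the CArG box and 4037 CATTCC (12.1%). Of the windows not shown, that of Nebl held a CArG box and that of Nexn held CATTCC. A match is only a description of these letters.

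Recovered reads came to between 7197118 and 10304156 per library at 12 weeks. Among the 9 genes, the reads of a library ranged from 388 for Nebl to 117633 for Ankrd1. The 11 cardiomyocyte markers were all present, at a summed normalized count of 32021 to 54895 in MI and 26330 to 44786 in MI+TRD. Of 12 skeletal muscle markers 3 had values, summing to at most 5.95. Atrial markers ran from 824 to 13373 in MI and from 1004 to 4245 in MI+TRD. MI+TRD replicates 1, 4 and 5 stood apart by low values of short genes and by Hba2, an alpha-globin gene (88.3, 234 and 465, against at most 25.7 in any other library). Hba2 was picked from 10 erythroid markers. The 7 with values summed to 214 to 938 in MI and 310 to 1124 in MI+TRD, so the groups overlapped on the list. MI+TRD replicate 6 stood apart by 12 macrophage markers, which summed to 2111 there, 81.9 to 216 in MI and had a median of 113 in MI+TRD. Of 11 epicardial and mesothelial markers 8 had values, summing to 22.1 to 37.3 in MI and 27.7 to 110 in MI+TRD, with a median relative log2 fold change of 1.46 and 6 of 8 higher at an unadjusted p below 0.05 (2.80% of all genes). Of the 11 cardiomyocyte markers 4 were lower at that threshold (19.1% of all genes). The part of these lists and libraries in the results below was not tested. Values below are normalized counts on the authors' scale, on which the median gene had a log2 fold change of −0.14. Fold changes called relative have that median subtracted. The p-values, also those beside a relative value, test the fold change before that subtraction. In bulk tissue, fewer cells of a type and less RNA per cell cannot be told apart.

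At 12 weeks the comparison asked what the implant and its operation added to the infarct. Tcap and Csrp3 had the lowest relative log2 fold changes of the 9, −0.88 and −0.55. Those of Myoz2 (0.04), Actn2 (0.15), Nebl (0.29) and Nexn (0.29) lay above the median gene. Single libraries weighed on Nexn and Nebl: Nexn had 0.16 without MI replicate 4, and Nebl had 0.11 without MI+TRD replicate 1 and 0.13 without MI replicate 5. The order of the 9 changed without MI+TRD replicates 1, 4 and 5. Flnc was then lowest at −0.45, while Csrp3 had −0.27 and Tcap −0.13. Nexn had 0.14 in that setting, and Myoz2, Actn2 and Nebl lay below 0, at −0.06, −0.20 and −0.04. None of the 9 passed an adjusted p of 0.05 with limma, which called 0 of 10655 genes (0.00%). At an unadjusted p below 0.05, Tcap, Csrp3 and Ldb3 were lower, which is 3 of 9 against 19.1% of all genes, and 0 of 9 were higher, against 2.80% of all genes. With each other scaling of the libraries 2 of the 9 were lower. On the reads recovered from the values, edgeR called 0 genes (0.00%) and DESeq2 called 18 (0.169%), none of the 9 among them (lowest adjusted p 0.313 with edgeR and 0.184 with DESeq2). The median relative log2 fold change of the 9 genes was −0.19, by definition 0.00 over all genes; it was −0.05 without MI+TRD replicate 6 and 0.11 with quantile normalization.

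**Figure D1:**
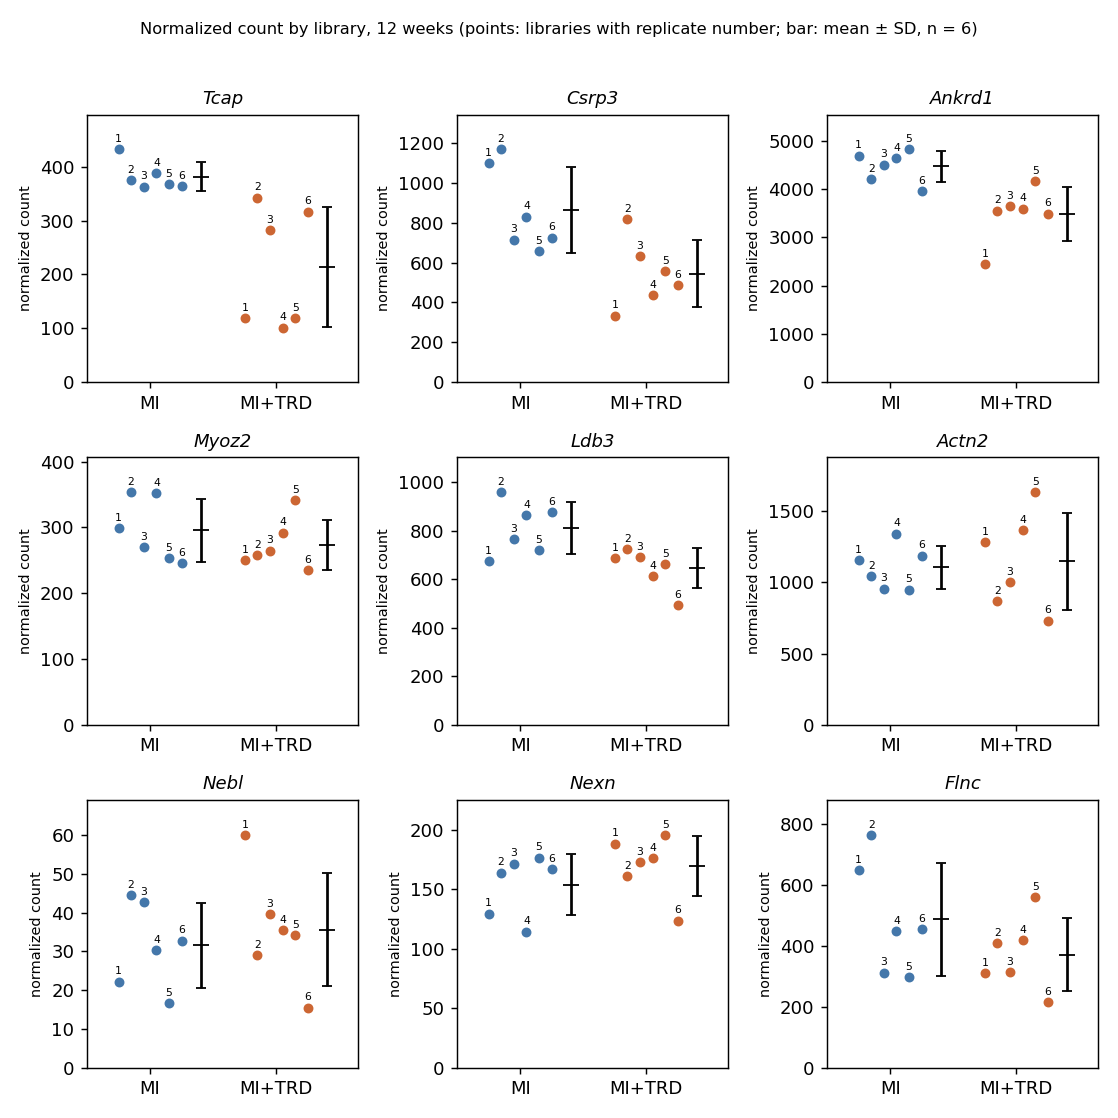
Normalized count (y axis, from 0) of each of the 9 genes in the 6 MI and 6 MI+TRD libraries at 12 weeks; points are libraries with their replicate number, bars the mean ± SD. For Tcap, 3 MI+TRD libraries lie at 101 to 119, while every MI library lies between 364 and 433.

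Tcap (chromosome 10, 86337703 to 86338862, plus strand, rn6) encodes telethonin, the cap that joins the ends of titin molecules. Its normalized count had a lowest, median and highest value of 364, 372 and 433 in MI, and of 101, 200 and 343 in MI+TRD. The MI libraries were tightly grouped and the MI+TRD libraries fell apart into 3 near the MI range (343, 282 and 317 in replicates 2, 3 and 6) and 3 far below it (119, 101 and 119 in replicates 1, 4 and 5). The groups did not overlap, a property that 1 of the 9 genes had and that 1.59% of all genes had in this direction. The means were 382 ± 26.4 and 213 ± 112 (SD, 6 libraries in each group). The log2 fold change was −1.02 (SE 0.29; limma adjusted p = 0.133), which placed Tcap at percentile 0.779 of all genes by fold change and at rank 215 by p. Relative to each library's median gene, 5 of 6 MI+TRD libraries lay below the lowest MI library, so 0 of the 9 genes were separate on that scale, against 0.460% of all genes.

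Short genes as a set were also low in the 3 libraries with little Tcap. Tcap spans 1.16 kb, and 353 genes that span up to 2 kb had a median relative log2 fold change of −0.29. Against the MI mean and relative to the library median, Tcap lay at −1.48, −1.71 and −1.55 in MI+TRD replicates 1, 4 and 5, where the short genes had medians of −0.65, −0.48 and −0.50. In MI+TRD replicates 2, 3 and 6 Tcap lay at −0.02, −0.21 and −0.31, and the short genes at 0.01, −0.05 and −0.17. With the trend over gene span removed from each library, the relative log2 fold change of Tcap was −0.56 (limma adjusted p = 0.328). Without MI+TRD replicates 1, 4 and 5 it was −0.13 (limma adjusted p = 0.407).

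Csrp3 (chromosome 1, 104147205 to 104157856, minus strand) encodes muscle LIM protein, which binds telethonin and alpha-actinin. Its normalized count had a lowest, median and highest value of 657, 778 and 1169 in MI, and of 334, 522 and 817 in MI+TRD. MI+TRD replicate 2, at 817, was within the MI range, and the other 5 MI+TRD libraries lay below the lowest MI library. On the scale relative to each library's median gene, 4 of 6 MI+TRD libraries lay below the lowest MI library. The means were 866 ± 216 and 544 ± 169 (SD, n = 6 each), a log2 fold change of −0.69 (SE 0.22; limma adjusted p = 0.133). Relative to the library median and against the MI mean, Csrp3 lay at −0.84 in MI+TRD replicate 6, where Tcap lay at −0.31. Without MI+TRD replicates 1, 4 and 5 its relative log2 fold change was −0.27 (limma adjusted p = 0.434), against −0.55 with all libraries.

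Ankrd1 (chromosome 1, 254726994 to 254735546, minus strand) encodes CARP, a partner of titin's spring region that also enters the nucleus. Its normalized count had a lowest, median and highest value of 3956, 4576 and 4826 in MI, and of 2442, 3579 and 4165 in MI+TRD. MI+TRD replicate 5, at 4165, was within the MI range, and the other 5 MI+TRD libraries lay below the lowest MI library, with replicate 1 lowest. Relative to each library's median gene, 3 of 6 MI+TRD libraries lay below the lowest MI library. The means were 4474 ± 329 and 3484 ± 564 (SD, n = 6 each), a log2 fold change of −0.38 (SE 0.18; limma adjusted p = 0.240) and a relative one of −0.23. The difference did not pass the test, although the coefficient of variation among MI libraries, 7.35%, was among the smallest of the 9 genes, next to 6.90% for Tcap. With quantile normalization the relative log2 fold change of Ankrd1 was 0.11.

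Ldb3 (chromosome 16, 10878505 to 10941419, minus strand) encodes cypher, also called ZASP, a PDZ and LIM protein that binds alpha-actinin and whose promoter window with its CArG box is shown above. Its normalized count had a lowest, median and highest value of 674, 815 and 958 in MI, and of 492, 673 and 724 in MI+TRD. The groups overlapped, with 3 MI+TRD libraries below the lowest MI library and replicate 6 lowest. After each library's median gene was taken into account, 1 of 6 MI+TRD libraries lay below the lowest MI library. The means were 810 ± 107 and 645 ± 83.2 (SD, n = 6 each), a log2 fold change of −0.33 (SE 0.14; limma adjusted p = 0.203) and a relative one of −0.19. Without MI+TRD replicate 6 the relative value was −0.08.

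Actn2 (chromosome 17, 66304531 to 66397648, minus strand) encodes the alpha-actinin of heart and slow muscle, the main crosslinker of the Z-disc. Its normalized count had a lowest, median and highest value of 949, 1098 and 1341 in MI, and of 730, 1141 and 1631 in MI+TRD. The group means differed little, 1104 ± 152 against 1146 ± 339 (SD, n = 6 each; log2 fold change 0.01, SE 0.20; limma adjusted p = 0.984), while the spread was wider in MI+TRD. MI+TRD replicates 4 and 5 lay above the highest MI library, and replicates 2 and 6 below the lowest. Without MI+TRD replicates 1, 4 and 5 the relative log2 fold change was −0.20, and without MI+TRD replicate 6 it was 0.30. Myoz2 (chromosome 2, 227180887 to 227207585, minus strand) encodes calsarcin-1, which holds the phosphatase calcineurin at the Z-disc. Its lowest, median and highest normalized counts were 245, 284 and 353 without the implant and 235, 262 and 341 with it, ranges that overlapped almost wholly (log2 fold change −0.11, SE 0.14; limma adjusted p = 0.708).

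Nebl (chromosome 17, 84141014 to 84247039, minus strand) encodes nebulette, which runs along the thin filament at its Z-disc end, and it had the fewest reads of the 9. Its lowest, median and highest normalized counts were 16.7, 31.6 and 44.5 in MI, against 15.5, 34.9 and 60.0 in MI+TRD. The groups overlapped, with MI+TRD replicate 1 highest and replicate 6 lowest of all 12 libraries (log2 fold change 0.15, SE 0.29; limma adjusted p = 0.816). Nexn (chromosome 2, 257453546 to 257474734, minus strand) encodes nexilin, an actin-binding protein, and 5 of its 6 MI+TRD values exceeded the average of MI. Its lowest, median and highest normalized counts were 114, 165 and 176 in MI, against 124, 174 and 195 in MI+TRD (log2 fold change 0.14, SE 0.15; limma adjusted p = 0.615). Flnc (chromosome 4, 56711086 to 56738780, plus strand) encodes filamin C, an actin crosslinker that links Z-discs to the cell membrane. Its lowest, median and highest normalized counts were 297, 451 and 763 in MI, against 215, 361 and 560 in MI+TRD. MI replicates 1 and 2 were the highest of all 12 libraries and MI+TRD replicate 6 the lowest, and the groups overlapped (log2 fold change −0.37, SE 0.26; limma adjusted p = 0.434). Without MI+TRD replicate 6 the relative log2 fold change of Flnc was −0.05, and without MI+TRD replicates 1, 4 and 5 it was −0.45, against −0.23 with all libraries.

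**Figure D2:**
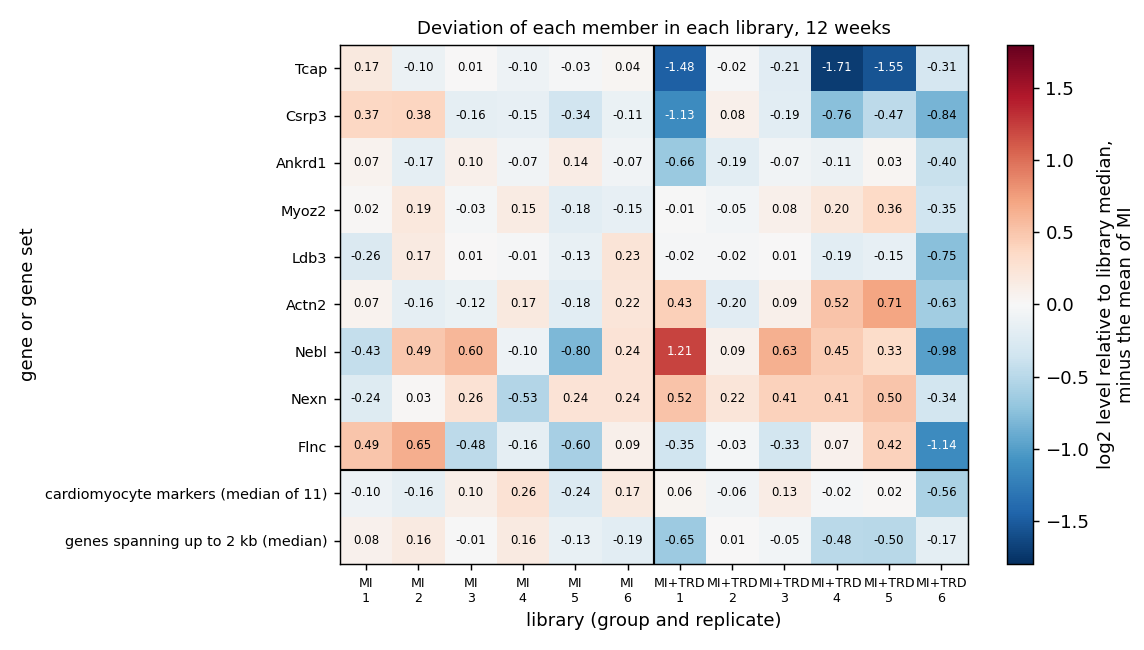
Heat map of the log2 level relative to the library median, minus the MI mean, for the 9 genes, the median of 11 cardiomyocyte markers and the median of genes spanning up to 2 kb (rows) in the 12 libraries (columns). MI+TRD replicates 1, 4 and 5 combine low Tcap and Csrp3 with Actn2 between 0.43 and 0.71, and MI+TRD replicate 6 is below 0 in every row.

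Set side by side by library, the 9 genes did not vary as 1 block, as the heat map of deviations by library shows. In MI+TRD replicates 1, 4 and 5, Tcap and Csrp3 were low while Actn2 (0.43, 0.52 and 0.71) and Nexn (0.52, 0.41 and 0.50) were above the MI mean. In MI+TRD replicate 6 all 9 lay below the MI mean, from −0.31 for Tcap to −1.14 for Flnc, where the 11 cardiomyocyte markers had a median of −0.56. MI+TRD replicates 2 and 3 stayed close to MI, with medians over the 9 genes of −0.02 and 0.01. Among the 9, the 3 with the shortest span, Tcap, Ankrd1 (8.55 kb) and Csrp3 (10.7 kb), had the 3 lowest relative fold changes, although that of Ankrd1 equalled that of Flnc (27.7 kb) at −0.23. Those of the 2 with the longest, Actn2 (93.1 kb) and Nebl (106 kb), lay above 0. Ldb3 (62.9 kb), the next longest, departed from that order at −0.19, and had −0.32 with the trend over gene span removed. Over all genes the median relative log2 fold change was −0.18 for 2612 genes spanning 2 to 10 kb, −0.03 for 3530 genes spanning 10 to 30 kb, 0.12 for 2811 genes spanning 30 to 100 kb and 0.14 for 1349 longer genes.

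A ratio of genes within a library does not depend on how that library was scaled. It does keep a trend over gene span, and Tcap (1.16 kb) and Actn2 (93.1 kb) lie far apart in span. The part of that trend in the ratios was not tested. Taken against Actn2, the log2 ratio of Tcap averaged −1.52 ± 0.18 over 6 MI libraries and −2.55 ± 1.23 over 6 MI+TRD libraries (SD), a difference of −1.03 with a two-sided exact permutation p of 0.126. MI+TRD replicates 1, 4 and 5 had −3.43, −3.75 and −3.78, while replicates 2, 3 and 6 ran from −1.82 to −1.20 and MI from −1.79 to −1.36. The log2 ratio of Csrp3 to Actn2 averaged −0.38 ± 0.35 and −1.08 ± 0.73 (SD, 6 libraries in each group; two-sided exact permutation p = 0.0671). For Ankrd1, Flnc and Myoz2 the differences were −0.39, −0.38 and −0.12 (exact permutation p = 0.123, 0.154 and 0.470). None of the 5 ratios passed after adjustment over the 5 (lowest exact permutation adjusted p = 0.192). Without MI+TRD replicates 1, 4 and 5 the difference was 0.07 for Tcap.

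**Figure D3:**
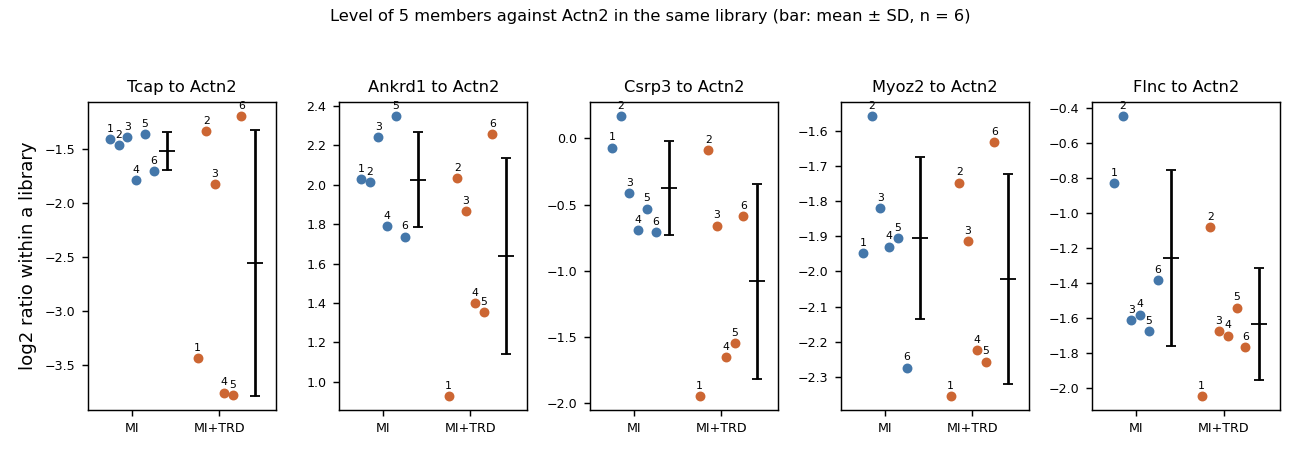
Log2 ratio within a library (y axis, a separate linear scale for each panel) of 5 genes to Actn2, by group at 12 weeks; points are libraries with their replicate number and bars the mean ± SD. In all panels MI+TRD replicate 1 is at or near the bottom, and for Tcap replicates 1, 4 and 5 lie between −3.78 and −3.43.

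The authors' deposited tables hold the same contrast at both times, with least-squares means per group and no values per library. In the authors' deposited table for 12 weeks, Tcap passed a false discovery rate of 0.05 (ratio of MI+TRD to MI 0.541, false discovery rate 0.0483), the only 1 of the 9 to do so, against 2.90% of all genes called lower. Csrp3 followed in the authors' deposited table with a ratio of 0.615 and a false discovery rate of 0.0614; at a rate of 0.1 the calls were 2 of 9, against 11.6% of all genes. At an unadjusted p below 0.05 the authors' deposited table had Tcap, Csrp3 and Ldb3 lower, 3 of 9 against 22.0% of all genes. In the authors' deposited table for 6 weeks none of the 9 passed, and no gene did (0.00%); the lowest rate over all genes was 0.0989. There, 0 of the 9 had an unadjusted p below 0.05, against 4.09% of all genes lower and 4.42% higher.

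At 6 weeks Tcap again had the lowest ratio of the 9 in the authors' deposited table, 0.678 (p = 0.165), with least-squares means of 336 in MI and 228 in MI+TRD. The ratio of Ankrd1 was 0.837, that of Csrp3 0.838 and that of Ldb3 0.843 in the authors' deposited table for 6 weeks, and at 12 weeks the ratios were 0.764, 0.615 and 0.783. Myoz2 and Nexn, at 0.786 and 0.804 in the authors' deposited table for 6 weeks, stood at 0.911 and 1.09 at 12 weeks. In the authors' deposited tables, ratios of 7 of the 9 genes were below 1 at 6 weeks, against 57.0% of all genes, and 6 of 9 at 12 weeks, against 67.3%. Whether the ratios differ between the times was not tested, because no library of the 6-week groups was analysed singly. The least-squares means of MI in the authors' deposited tables were 297 at 6 weeks and 508 at 12 weeks for Flnc, and 13.6 and 33.0 for Nebl; no comparison is made, since the 2 tables may have been scaled separately.

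**Figure D4:**
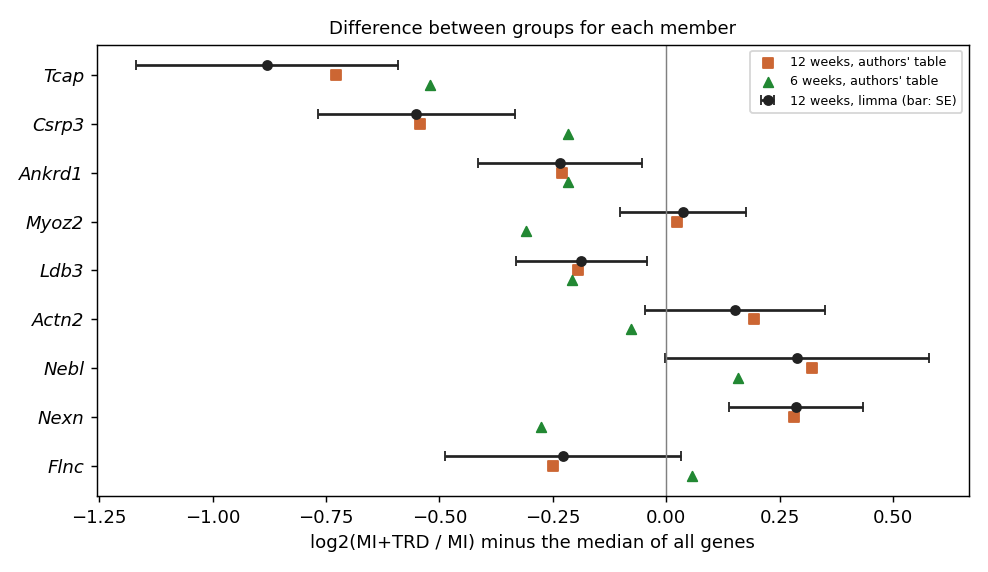
Log2 ratio of MI+TRD to MI minus the median of all genes (x axis) for the 9 genes (y axis): the limma estimate at 12 weeks with its SE, and the ratios of the authors' deposited tables at 12 and 6 weeks. Tcap has the lowest limma estimate, −0.88, and Nexn lies above 0 at 12 weeks and below 0 at 6 weeks.

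Other proteins of the Z-disc were taken from a list of 30 genes, of which 25 were tested. With an unadjusted p under 0.05, 3 of 25 were lower, a smaller share than the 19.1% of all genes, and none were higher, against 2.80% of all genes. The median relative log2 fold change was 0.06; none passed over all genes with limma. The 4 with the smallest p were Lmcd1, a LIM protein that promotes calcineurin signalling, the PDZ and LIM genes Pdlim7 and Pdlim3, and Cryab, the chaperone alpha-B-crystallin that protects titin and desmin. Lmcd1 averaged 88.2 ± 13.5 over 6 MI libraries and 66.7 ± 10.1 over 6 MI+TRD libraries (SD; relative log2 fold change −0.26, limma adjusted p = 0.134), and 6 of 6 MI+TRD libraries were lower than the average of MI. Pdlim7 and Pdlim3 had relative log2 fold changes of −0.41 and −0.75, and Cryab had −0.19 (limma adjusted p = 0.155, 0.170 and 0.270). Without MI+TRD replicates 1, 4 and 5 the values were −0.30 for Lmcd1, −0.06 for Pdlim7, −0.18 for Pdlim3 and −0.08 for Cryab.

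Partners of titin away from the Z-disc, with the M-band and titin splicing, made a list of 21 genes with 15 tested, of which 3 had an unadjusted p under 0.05, all of them lower. That is 20% of the list, close to the 19.1% of all genes. Their median relative log2 fold change was −0.09. Trim63 encodes MuRF1, a ubiquitin ligase of muscle that binds titin at the M-band, and it had the smallest p of the list (adjusted p = 0.133 with limma). Its normalized count averaged 69.2 ± 5.94 over 6 MI libraries and 47.8 ± 7.21 over 6 MI+TRD libraries (SD), from 61.8 to 77.8 in MI and from 38.7 to 56.1 in MI+TRD, so the groups did not overlap. Its relative log2 fold change was −0.40, and −0.35 without MI+TRD replicates 1, 4 and 5; in the authors' deposited table for 12 weeks its false discovery rate was 0.0483. Mybpc3, the cardiac myosin-binding protein C gene, measured 2283 ± 306 and 1719 ± 193 (SD, n = 6 each; relative log2 fold change −0.27, limma adjusted p = 0.160), also with no overlap between the groups. Both genes were named for their small p, and 1.59% of all genes were likewise lower in every MI+TRD library than in every MI library. Trim55, which encodes MuRF2, and Rbm20, the splicing factor that sets titin isoforms, had −0.20 and −0.12 (limma adjusted p = 0.209 and 0.326).

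Likeness of pattern was measured as Pearson's r of log2 levels relative to the library median, after subtracting the group mean, over the 12 libraries. For Tcap, the 5 most alike genes were Mt1, a metallothionein gene, Cops9, Hcfc1r1, the prefoldin gene Pfdn2 and the small GTPase gene Arf5 (r from 0.962 to 0.971). Of these, 2 span no more than 2 kb, Mt1 (1.02 kb) and Hcfc1r1 (1.36 kb). Mt1 had the lowest mean normalized counts of the 5, 3.30 in MI and 3.44 in MI+TRD. The 5 were picked for their high r, and no background of r over all genes is given. Among the other 8 genes described here, Csrp3 had an r of 0.531 with Tcap, and Actn2 had −0.774. Against the MI mean, Tcap ran from −0.10 to 0.17 in MI. It ran from −1.71 to −1.48 in MI+TRD replicates 1, 4 and 5, and from −0.31 to −0.02 in replicates 2, 3 and 6. A high r with Tcap therefore mainly marks genes that share this split of the MI+TRD libraries. Likeness to Tcap apart from that split was not tested. For Ankrd1, the 5 most alike were Taf12, Catsperg, Col4a4, Tmem5 and Osgep (r from 0.850 to 0.934), of which Catsperg and Col4a4 had mean normalized counts of 1.04 and 0.863 in MI, so that few reads stand behind them. Csrp3 had the highest r with Ankrd1 among the other 8, 0.389. Values within a group share their libraries, and these r describe 12 points only.

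**Figure D5:**
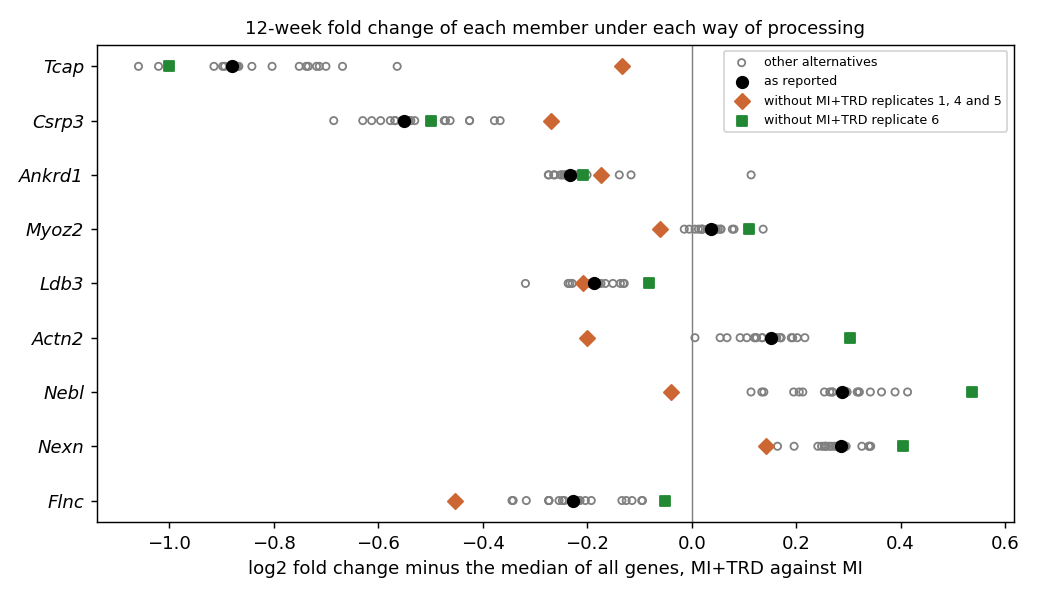
Relative log2 fold change at 12 weeks (x axis) of the 9 genes (y axis) as reported and under each other way of processing or with libraries left out. For Tcap the value without MI+TRD replicates 1, 4 and 5, −0.13, is the closest to 0, and for Flnc, Ldb3, Actn2, Nebl and Nexn the value without MI+TRD replicate 6 is the highest.

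The plot of fold changes under each way of processing shows which genes depended on which libraries. For Tcap and Csrp3 the values nearest to 0 came from leaving out MI+TRD replicates 1, 4 and 5, and over the libraries left out singly they ran from −1.06 to −0.70 and from −0.69 to −0.43. For Nebl the value was 0.54 without MI+TRD replicate 6 and −0.04 without MI+TRD replicates 1, 4 and 5. With the atrial markers as a covariate Tcap had −0.74 and Csrp3 −0.38 (limma adjusted p = 0.237 and 0.242).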

How the data were processed

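Per the labels, polyadenylated RNA of rat myocardium was read on Illumina instruments. Partek and the rn6 build appear in the submitters' processing notes. Not given in the sources used here: aligner, counter, annotation, scaling, model and use of strand. The authors deposited normalized counts, a signal per gene and library, for the 12 libraries at 12 weeks (10723 genes). Between 97.2% and 98.6% of values of up to 20 steps per library lay within 0.1 of a whole multiple of the library's smallest value, so reads were recovered as that multiple minus 1; this was not checked for higher values. The authors' deposited tables give, per the file headers, a p-value, a step-up false discovery rate, a linear ratio, a signed fold change score and least-squares means as a signal for each comparison.

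The 12-week test was limma 3.58.1 with a trended prior on log2(value + 0.208), without covariates, over genes with a mean share equal to at least 0.415 deposited units, two-sided with Benjamini-Hochberg adjustment. Fold changes on that scale understate the change of genes with low values. Alternatives were edgeR 4.0.16 and DESeq2 1.42.0 on recovered reads, other scalings, pseudocounts and filters, a replicate block, library weights, atrial markers as a covariate, a gene span trend removed, and libraries left out. Ratios were compared by exact permutation over all 924 assignments in SciPy 1.17.1. Ratios of Tcap and Ankrd1 to Actn2, and genes alike to Tcap, took the place of those planned with titin and were chosen after seeing the data. Named besides the 9 genes are the 4 genes with the smallest p of each of 2 lists and the 5 genes most alike to Ankrd1 and to Tcap. The genes and lists were chosen with earlier results of these data known. The fits were tested on simulated reads. Csrp3 lies inside the span that the deposited table lists for Sbk1, on the same strand, and how shared reads were counted is not known. That listed span runs from 67368364 to 197681030. Sbk1 averaged 31.3 in MI and 27.4 in MI+TRD, against 866 and 544 for Csrp3.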

Additional observations from a re-analysis of the deposited data

Results flagged for a closer look

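Tcap in MI replicate 1, at a normalized count of 432.7, stood apart from the other 5 MI libraries, whose highest value was 387.9, and the gap took 0.648 of the group's range, more than Dixon's critical value for a group of 6. It was the only such value among 28 groups of 6 libraries looked at, and chance gives about 1 in 20.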

How the results depend on the processing

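None of the 9 genes passed an adjusted p of 0.05 under any fit run at 12 weeks. Over all genes the count was 0 with limma and with edgeR under each of them, and 18 with DESeq2. The number lower at an unadjusted p below 0.05 was 3 as reported, 2 to 4 with single libraries left out and 0 without MI+TRD replicates 1, 4 and 5. It was 2 with each other scaling, with edgeR, with DESeq2 and with the atrial markers as a covariate, and 4 with a stricter filter on low values. With libraries scaled to equal totals, the limma adjusted p of Ldb3 was 0.767, against 0.203 as reported. The median relative log2 fold change of the 9 genes was −0.19, −0.23 to −0.05 with single libraries left out (−0.05 without MI+TRD replicate 6), and 0.11 with quantile normalization, where Ankrd1 also had 0.11. Without MI+TRD replicates 1, 4 and 5, Myoz2, Actn2 and Nebl had −0.060, −0.20 and −0.040, and the differences in log2 ratio to Actn2 were 0.067 for Tcap, 0.027 for Ankrd1 and 0.14 for Myoz2, where 6 against 3 libraries allow no p below 0.0238. Myoz2 had −0.0045 with the gene span trend removed and −0.014 (without MI+TRD replicate 5) to 0.11 with single libraries left out. The cause of these shifts was not tested. In the authors' deposited tables a false discovery rate of 0.1 gave 2 of the 9 genes and 1370 of all genes at 12 weeks, against 1 and 332 at 0.05, and 1 of all genes at 6 weeks. Whether replicate numbers pair the samples was not tested: the correlations of same-numbered libraries' deviations ran from −0.33 to 0.327, and 3 of 6 libraries were closest to their own number. With the replicate number as a block, limma called 0 genes, and Tcap and Csrp3 had relative log2 fold changes of −0.88 and −0.55 (adjusted p = 0.169 for both), with 2 of the 9 lower at an unadjusted p below 0.05. Ratios to Ttn were not run. Each of the 9 genes had at least 388 recovered reads in every library.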

Other observations

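Relatives of the Z-disc genes in the same protein families were looked at after the values above were seen. Of 12 relatives looked for, 9 were tested, and not all are described. None passed an adjusted p of 0.05 with limma, which called 0 of 10655 genes. At an unadjusted p below 0.05, 0 of 9 were lower, against 19.1% of all genes, and 0 of 9 were higher, against 2.80%. Actn1, Actn4, Csrp1, Csrp2 and Myoz1 were already counted in the list of other Z-disc proteins above, and Ankrd23 in that of titin partners. The non-muscle alpha-actinin genes Actn1 and Actn4 had relative log2 fold changes of 0.37 and 0.08 and the filamin gene Flna 0.24 (limma adjusted p = 0.587, 0.885 and 0.862). Before the median was subtracted, the log2 fold change of Actn4, which the p-value tests, was −0.06. The LIM protein genes Csrp1 and Csrp2 had −0.27 and −0.62 (limma adjusted p = 0.351 and 0.384), the same sign as Csrp3. Ankrd23, a further ankyrin repeat gene of titin's spring region, averaged 69.2 ± 30.1 over 6 MI libraries and 47.2 ± 28.9 over 6 MI+TRD libraries (SD; relative log2 fold change −0.61, limma adjusted p = 0.380). Myoz1, the fast-muscle relative of Myoz2, was at 1.96 ± 0.593 and 1.38 ± 0.687 (SD, n = 6 each; limma adjusted p = 0.349), and Lasp1, a relative of Nebl, at 38.2 ± 7.17 and 34.3 ± 10.5 (SD, n = 6 each; limma adjusted p = 0.615).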
